A study of Homo sapiens with 6 samples.

Results

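The 10 genes described here encode proteins that hold epithelial cells together: the surface adhesion protein gene EPCAM, the classical cadherin genes CDH1 and CDH2, the catenin gene CTNNA1, the desmosomal cadherin genes DSG2 and DSC2, the plaque protein genes JUP, PKP2 and PKP4, and the desmoplakin gene DSP. They were taken by symbol from 28278 gene symbols counted in each library. All 10 symbols were listed. Messenger RNA was sequenced from RKO, a cell line from a human colon carcinoma, in 3 libraries labelled GSK3B wild-type and 3 labelled GSK3B knockout. The series asked how the level of GSK3B, a serine/threonine kinase, alters the transcriptome. Both groups had the same line background and no treatment is named. The sources name neither the method of knockout nor whether its cells were 1 clone or a pool. Separate cultures are not named for the replicates either, so each p-value rests on the spread among 3 libraries per group, and that spread may be technical.

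Adherens junctions and desmosomes are both built on cadherins that bridge neighbouring cells. In an adherens junction a classical cadherin such as E-cadherin (CDH1) or N-cadherin (CDH2) binds beta-catenin, which binds alpha-catenin (CTNNA1) and through it actin. In a desmosome the cadherins are desmogleins and desmocollins, their tails bind the armadillo proteins plakoglobin (JUP) and plakophilins, and desmoplakin (DSP) ties the plaque to keratin filaments. EPCAM is a separate surface glycoprotein of simple epithelia and of many carcinomas. GSK3 is known to phosphorylate beta-catenin, the cadherin repressor SNAI1 and the tail of desmoplakin.

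Libraries held 32379369 to 33558362 counts. GSK3B had 99.0, 97.6 and 91.4 CPM (library-scaled counts, TMM method) in the wild-type libraries and 46.0, 47.5 and 47.1 CPM in the knockout libraries, 48.8% of the wild-type level (95% interval 45.4 to 52.4). Of 15 listed colon epithelial markers CDX2, VIL1, KRT8 and KRT18 had 17.2 to 69.9 CPM in wild type, and EPCAM had 3.43. CDX1, HNF4A, LGALS4 and CEACAM5 were listed at 0 counts, as was CDH1. The remaining markers, KRT19, KRT20, CDH17, GPA33 and MUC2, had wild-type means of only 0 to 0.081 CPM. Wild-type replicate 3 stood apart from the other wild-type libraries, with a chi-square per degree of freedom of 9.30 and 5.80 against replicates 1 and 2, which gave 3.90 with each other. A list of 9 fibroblast markers summed to 2.37, 3.12 and 6.16 CPM in the wild-type libraries and to 1.12 to 1.23 CPM in the knockout libraries. In that list FAP was at 0 counts in all libraries, and 2 of the 9 genes were tested. DCN, COL1A2 and COL3A1 had 25, 23 and 18 counts in wild-type replicate 3 and 0 to 2 in every other library. PDGFRB had 53, 70 and 67 counts in the wild-type libraries and PDGFRA 4, 13 and 6, both highest in replicate 2. PDGFRB fell by 1.43 on the log2 scale (edgeR, adjusted p = 0.00092). COL1A1, with 19, 13 and 61 counts in wild type and 7, 10 and 12 in the knockout, stood at -1.66 (edgeR, adjusted p = 0.0285) but at -0.72 without wild-type replicate 3 (0.389), and its call was also lost in limma-voom (0.0862) and with any 1 of the knockout replicates left out (0.0591 to 0.122).

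The upstream sequence of a member that fell and of a member that did not is shown first. Each is the part of the 250 bases before the RefSeq start (GRCh38.p14, plus strand) that lies before the GENCODE 29 gene start. Capitals mark CAGGTG, the E-box that ZEB and SNAI factors bind, searched as CAGGTG and CACCTG. The DSP window is chr6:7541421-7541574 and the DSG2 window is chr18:31497927-31498042.
DSP: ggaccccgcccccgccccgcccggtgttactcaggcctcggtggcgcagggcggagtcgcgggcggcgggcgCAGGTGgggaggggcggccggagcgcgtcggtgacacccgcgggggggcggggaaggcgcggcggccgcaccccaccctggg
DSG2: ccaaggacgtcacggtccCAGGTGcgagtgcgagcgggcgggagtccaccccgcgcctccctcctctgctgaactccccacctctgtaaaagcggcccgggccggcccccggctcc
Over the full 250 bases DSP and DSG2 each had 2 matches, at 178 and 85 bases before the RefSeq start in DSP and at 232 and 116 in DSG2. The matches at 85 and 116 lie past the GENCODE 29 gene start, inside the annotated gene, and so are not in the printed part. Such a match occurs in 17.5% of the 35116 RefSeq windows of that length. Neither had CTTTGAT, a TCF/LEF motif searched on both strands, which 2.3% of the windows hold. Both windows were rich in G and C, at 78.0% in DSP and 75.2% in DSG2 against a median of 58.0%. The sequences were matched for 7 of the 10 genes, and EPCAM, PKP2 and CDH1 had no entry. CAGGTG also occurred in a window of DSC2 (156 bases before the RefSeq start) and a window of JUP (54 and 43). That JUP window lies inside its GENCODE 29 gene, and the other windows of DSC2 and JUP had no match. CTTTGAT occurred at the same site in 2 overlapping windows of CTNNA1 (41 and 211 bases before their RefSeq starts), which lie inside its GENCODE 29 gene. The other CTNNA1 windows had no match.

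EPCAM and DSP fell in the knockout, EPCAM to 31.2% and DSP to 49.2% of the wild-type level. Of the 10 genes 7 passed the filter on low counts and were tested; JUP, CDH1 and CDH2 did not. In edgeR's quasi-likelihood test with Benjamini-Hochberg adjustment over 14409 genes, 2 of the 7 were lower at an adjusted p under 0.05 and 0 were higher, where 7.18% of all tested genes were lower and 6.36% higher. Before adjustment 3 of the 7 were lower and 0 higher at p under 0.05, a threshold for which no share of all genes is given. DESeq2, which gave DSC2 no adjusted p-value, called 3 lower and limma-voom 2, and neither called any higher. Of all genes, DESeq2 called 865 lower and 868 higher of 13725, and limma-voom 990 lower and 912 higher of 14409. EPCAM and DSP were both called and at least 2-fold lower, as were 0.583% of all tested genes, but the estimate for DSP lay close to that limit and was smaller without wild-type replicate 3 or knockout replicate 2 (-0.97 and -0.96 on the log2 scale). The median log2 fold change of the 7 was -0.09, and that of all tested genes was 0.00070. Because RNA was measured in bulk, fewer cells that express a gene and less of its RNA per cell cannot be told apart.

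EPCAM (chromosome 2, 47345158 to 47387601, plus strand) had 3.62, 4.28 and 2.40 CPM in wild-type replicates 1 to 3. In the knockout it had 1.04, 1.06 and 1.11 CPM. The lowest wild-type library, replicate 3, was still above every knockout library. The counts behind these values were 119, 140 and 80 against 34, 34 and 37, so EPCAM was a low gene in both groups. On the log2 scale EPCAM fell by 1.68 ± 0.23 (SE, n = 3 in each group; edgeR, adjusted p = 2.59e-05; 95% interval -2.16 to -1.20). Its wild-type values varied more than the knockout values, with a coefficient of variation of 27.7% against 3.69%. Wild-type replicate 3 held both the lowest EPCAM level and the highest sum of fibroblast markers. The part of those markers in the EPCAM result was not tested; without that library the EPCAM change was -1.88 (edgeR, adjusted p = 5.27e-07).

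DSP (chromosome 6, 7541575 to 7586717, plus strand) had 18.8, 19.9 and 21.7 CPM in the wild-type libraries. It had 10.5, 8.98 and 10.2 CPM in the knockout libraries. The groups were far apart, and each varied little, with coefficients of variation of 7.30% and 8.01%. On the log2 scale DSP fell by 1.02 ± 0.09 (SE, n = 3 in each group; edgeR, adjusted p = 2.33e-08; 95% interval -1.21 to -0.84). Among the 1034 genes called lower, ordered by size of fall, EPCAM was number 23 and DSP number 81.

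**Figure D1:**
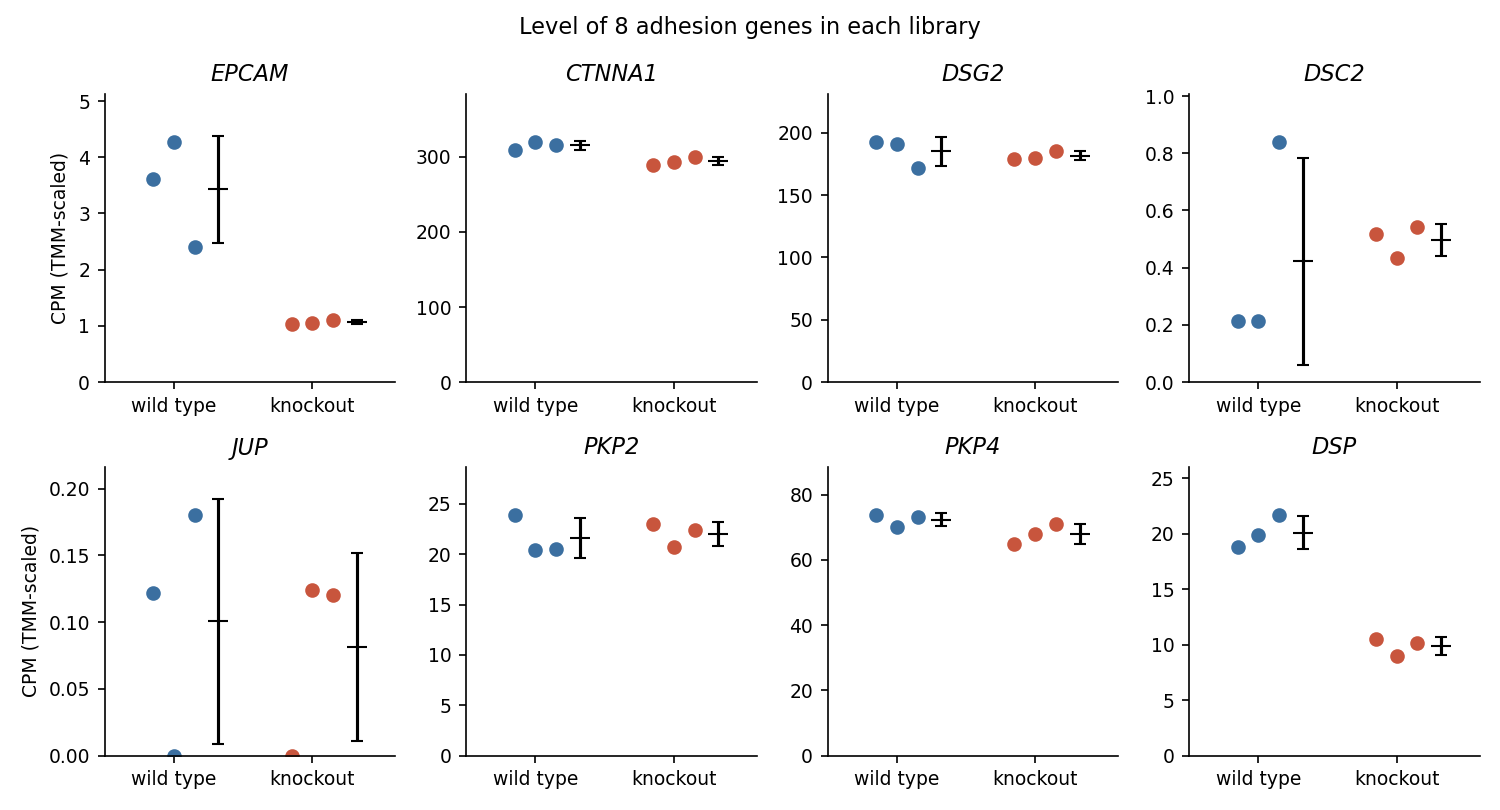
TMM-scaled CPM (vertical axes from 0, a separate scale for each gene) of the 8 genes with any count, with 1 point per library and, beside them, the mean and SD of 3 libraries. EPCAM and DSP separate the groups widely, CTNNA1 separates them narrowly (309.1 to 320.3 against 289.4 to 299.9 CPM), and the other 5 overlap.

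No other desmosome member passed the test. DSG2 (chromosome 18, 31498043 to 31549008, plus strand), the desmoglein of simple epithelia, had 192.9, 191.1 and 171.8 CPM in wild type and 179.3, 179.5 and 185.6 CPM in the knockout. The groups overlapped, and its log2 fold change was -0.03 (95% interval -0.12 to 0.06; edgeR, adjusted p = 0.713). PKP2 (chromosome 12, 32790745 to 32896840, minus strand), a plakophilin that links desmosomal cadherins to desmoplakin, had 23.9, 20.4 and 20.5 CPM in wild type and 23.0, 20.7 and 22.5 CPM in the knockout. Its interval ran from -0.13 to 0.19 around a log2 fold change of 0.03 (edgeR, adjusted p = 0.843). PKP4 (chromosome 2, 158456964 to 158682879, plus strand), an armadillo protein of both junction types, had 73.7, 70.1 and 73.1 CPM against 64.8, 67.8 and 71.0 CPM. PKP4 did not pass, at -0.09 (95% interval -0.20 to 0.01; edgeR, adjusted p = 0.240). Of their 6190 and 9525 exon bases, DSG2 and PKP4 share 171 and 418 with antisense genes on the other strand. Without a stated strand setting, reads in those shared bases cannot be told from reads of DSG2-AS1 (113 to 175 counts) and PKP4-AS1 (129 to 156 counts).

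DSC2 and JUP were close to the limit of detection. DSC2 (chromosome 18, 31058840 to 31102522, minus strand), the desmocollin partner of DSG2, had 7, 7 and 28 counts in wild type and 17, 14 and 18 in the knockout. Wild-type replicate 3 alone set the upper end, and the log2 fold change of 0.23 had a 95% interval from -0.74 to 1.21 (edgeR, adjusted p = 0.800). JUP (chromosome 17, 41754604 to 41786931, minus strand), which encodes plakoglobin, had 4, 0 and 6 counts in wild type and 0, 4 and 4 in the knockout. A difference in JUP was not detectable at this depth.

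CTNNA1 (chromosome 5, 138610967 to 138935034, plus strand), which encodes alpha-E-catenin, was the member with the most counts. It had 309.1, 320.3 and 316.4 CPM in wild type and 289.4, 292.9 and 299.9 CPM in the knockout. The groups did not overlap, so that 3 of the 7 tested members were lower without overlap, where 31.3% of all tested genes did not overlap and 15.9% were lower without overlap. CTNNA1 missed the threshold, at -0.10 ± 0.03 on the log2 scale (SE, n = 3 in each group; edgeR, adjusted p = 0.0567). After a correction for transcript GC content CTNNA1 passed, at the same log2 fold change (edgeR, adjusted p = 0.00664), and 3 of the 7 were then lower and 0 higher. With that correction 18.6% of all tested genes were called, 9.85% lower and 8.71% higher. CTNNA1 shares 445 exon bases with LRRTM2 on the other strand, which had 0 to 10 counts.

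CDH1 (chromosome 16, 68737225 to 68835548) and CDH2 (chromosome 18, 27950966 to 28177446), which encode E-cadherin and N-cadherin, were listed at 0 counts in all 6 libraries. A count of 0 allows up to 3 counts per library, which is 0.0901 to 0.0933 CPM, and covers counting error only. The tight junction scaffold gene TJP1, the nucleolar gene FBL and the elongation factor gene EEF1B2 were also listed at 0 in all 6, and a listed 0 is therefore not taken to mean that the transcript was missing.

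**Figure D2:**
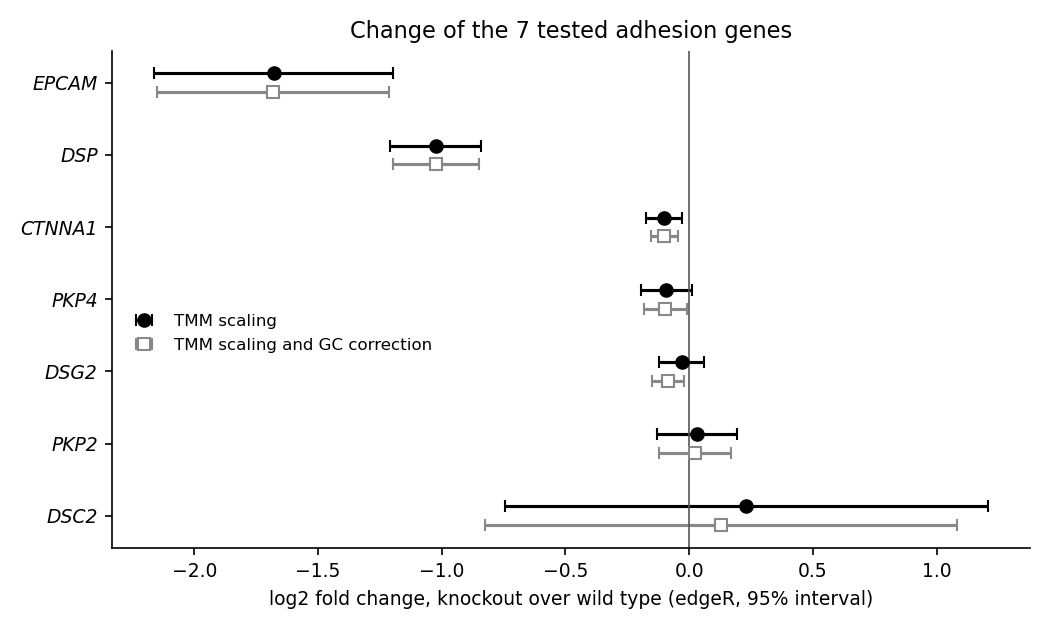
Log2 fold change, knockout over wild type, of the 7 tested genes with its 95% interval from edgeR (n = 3 libraries per group), with TMM scaling and with an added GC correction. The intervals of EPCAM, DSP and CTNNA1 lie below 0 in both fits and those of DSG2 and PKP4 do so in the GC-corrected fit but not with TMM scaling, though neither passed the adjusted test in that fit, and that of DSC2 is the widest, from -0.74 to 1.21 with TMM scaling.

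Levels were compared between genes per kilobase of merged exons. In wild type CTNNA1 led with 35.7 ± 0.65 CPM per kilobase (SD, n = 3), and DSG2 followed with 29.9 ± 1.89. PKP4 had 7.59 ± 0.20, PKP2 3.06 ± 0.28, DSP 1.99 ± 0.15 and EPCAM 1.36 ± 0.38 CPM per kilobase. DSC2 and JUP had 0.034 ± 0.029 and 0.020 ± 0.019. The wild-type ranges of neighbours in this order did not overlap, except those of DSC2 and JUP. The order was the same in the knockout, where DSP had 0.98 ± 0.078 and EPCAM 0.42 ± 0.016 CPM per kilobase and the ranges of DSC2 and JUP no longer overlapped. Among 13817 tested genes with a length, ranked by their mean per kilobase over the 6 libraries, DSG2 stood at percentile 88.0, DSP at 20.5 and DSC2 at 0.318.

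Ratios of counts within a library do not depend on how libraries are scaled, and 8 were computed. For 100 DSG2 counts there were 9.73, 10.4 and 12.6 DSP counts in wild type and 5.84, 5.01 and 5.49 in the knockout. The desmoplakin-to-desmoglein ratio in the knockout was thus 49.9% of that in wild type, with no overlap of the groups (two-sided exact permutation p = 0.1, the smallest that 3 against 3 libraries allow; 0.2 adjusted over the 8 ratios). For 100 DSG2 counts there were 11.7 ± 0.89 PKP2 counts in wild type and 12.1 ± 0.64 in the knockout (SD, n = 3; exact permutation p = 0.5), and the groups overlapped. For 100 CTNNB1 counts there were 72.8, 72.7 and 77.4 CTNNA1 counts in wild type and 67.9, 69.5 and 69.2 in the knockout. CTNNA1 was thus lower against CTNNB1 in every knockout library (exact permutation p = 0.1, 0.2 adjusted). Against DSG2 it was not: for 100 DSG2 counts there were 160, 168 and 184 CTNNA1 counts in wild type. The knockout had 161, 163 and 162, and the groups overlapped (exact permutation p = 0.4, 0.5 adjusted). EPCAM against DSP, at 19.3, 21.5 and 11.1 per 100 DSP counts in wild type and 9.88, 11.8 and 10.9 in the knockout, overlapped through wild-type replicate 3 (exact permutation p = 0.2).

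**Figure D3:**
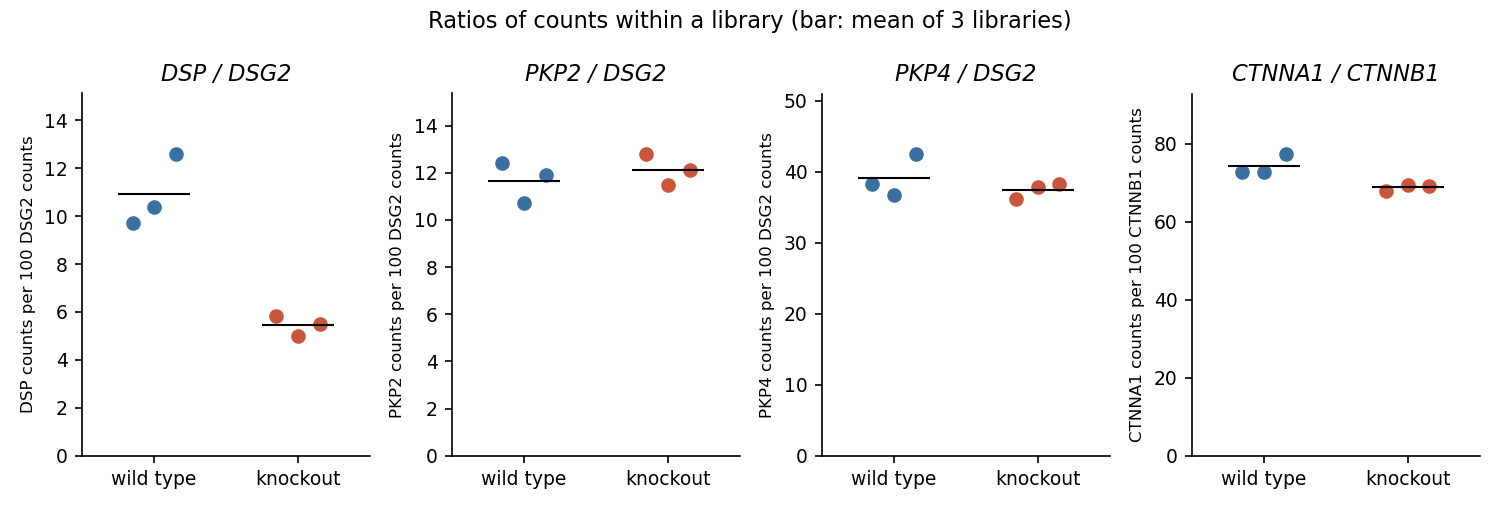
Counts of 1 gene per 100 counts of another in the same library (vertical axes from 0), with 1 point per library and a bar at the mean of 3. DSP against DSG2 goes from 9.73 to 12.6 in wild type to 5.01 to 5.84 in the knockout, while PKP2 and PKP4 against DSG2 overlap between the groups.

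Called changes in other desmosome, adherens and tight junction genes were smaller than those of EPCAM and DSP. For this list and those below, 7.18% of all tested genes were called lower in edgeR and 6.36% higher. With the GC correction these shares were 9.85% and 8.71%, and for unadjusted p-values no share is given. Among 6 tested desmosome genes outside the members, PERP, a membrane protein of desmosomes and a p53 target, fell from 141.8 ± 6.86 to 129.2 ± 2.22 CPM (SD, n = 3; edgeR, adjusted p = 0.0420), and the other 5 did not pass. The plakin gene PLEC stood at -0.04 and EVPL at -0.00040 on the log2 scale, and the plakophilin gene PKP3 at -0.16 with a 95% interval of -0.34 to 0.01. The call of PERP was lost with wild-type replicate 2 left out (edgeR, adjusted p = 0.250) and with knockout replicate 1, 2 or 3 left out (adjusted p = 0.0953, 0.158 and 0.139). The list's median was -0.03.

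Of 16 tested adherens junction genes 2 rose, 1 fell and 13 did not pass, where 6.36% of all tested genes were higher and 7.18% lower. The list's median was -0.06. The nectin-like receptor gene PVR rose from 126.9 ± 2.54 to 141.5 ± 4.34 CPM and SSX2IP, which encodes the afadin-binding protein ADIP, from 54.8 ± 3.46 to 63.4 ± 2.17 CPM (SD, n = 3). ARVCF, a catenin of the p120 family, fell from 26.0 ± 0.26 to 22.2 ± 0.87 CPM. Adjusted p-values in edgeR were 0.0140, 0.0123 and 0.0302. The beta-catenin gene CTNNB1 had 424.7 ± 15.8 and 427.0 ± 5.86 CPM and did not pass (log2 fold change 0.01, 95% interval -0.06 to 0.08). After the GC correction ARVCF and SSX2IP no longer passed (edgeR, adjusted p = 0.165 and 0.0883), and of the 16 genes 1 was then higher and 4 were lower. Without wild-type replicate 2 none of these 3 genes passed (adjusted p = 0.0837 for PVR, 0.0661 for SSX2IP and 0.0821 for ARVCF). Without knockout replicate 2 they did not pass either (0.0927, 0.0602 and 0.149), and ARVCF and SSX2IP also failed without knockout replicate 1 (0.0570 and 0.0821), and ARVCF and PVR without knockout replicate 3 (0.0878 and 0.0913).

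Among 5 tested cadherin genes outside the members CDH20 rose from 1.89 ± 0.25 to 2.90 ± 0.25 CPM (SD, n = 3; edgeR, adjusted p = 0.0365). This call was lost on leaving out wild-type replicate 2 or any 1 of the knockout replicates (adjusted p = 0.0657 to 0.140), nor in DESeq2 (0.0789). Of 20 such genes 3 were at 0 counts in all libraries. Of 15 tested tight junction genes 3 fell and 0 rose, with a median of -0.08. Unadjusted, 3 were lower and 2 higher at p under 0.05 in edgeR, while DESeq2 called 2 lower and 1 higher and limma-voom 2 lower and 0 higher. ESAM, F11R (junctional adhesion molecule A) and the polarity gene PARD3 changed by -0.54, -0.30 and -0.15. ESAM rested on wild-type replicate 3, which had 5.68 CPM against 3.71 and 3.73 in the other wild-type libraries, and stood at -0.30 without it (edgeR, adjusted p = 0.266). Its call was also lost with any 1 of the knockout replicates left out (0.0792 to 0.123), in DESeq2 (0.0871) and in limma-voom (0.0718). The call of F11R was lost when wild-type replicate 2 or knockout replicate 2 was left out (0.0857 and 0.1), and that of PARD3 without wild-type replicate 2 or any 1 of the knockout replicates (0.0651 to 0.167). F11R shares 1853 exon bases with another annotated gene on the same strand, and PVR shares 121 with CEACAM19 likewise.

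None of EPCAM's tested partners passed in edgeR with TMM scaling. Of 10 tested genes of EPCAM partners, cleaving proteases and tail-binding proteins 0 passed edgeR, with 1 lower and 0 higher at an unadjusted p under 0.05; DESeq2 called 1 lower and limma-voom 0. The hyaluronan receptor gene CD44 had 393.5 ± 15.3 and 379.8 ± 6.56 CPM. FHL2, whose protein binds the cut EPCAM tail, had 309.1 ± 7.53 and 288.1 ± 5.38 CPM (SD, n = 3; edgeR, adjusted p = 0.0588). Of 10 tested regulators of the epithelial and mesenchymal states 0 passed edgeR, 2 lower and 0 higher had an unadjusted p under 0.05, and DESeq2 and limma-voom called 0. The 2 lower were KLF5, at a log2 fold change of -0.29, and KLF4, at -0.39 (edgeR, adjusted p = 0.0562 and 0.141). ZEB1, a repressor of epithelial adhesion genes, had 284.7, 248.4 and 240.2 CPM in wild type and 285.6, 281.0 and 263.0 CPM in the knockout, so the groups overlapped (log2 fold change 0.10, 95% interval -0.0029 to 0.21; edgeR, adjusted p = 0.192). SNAI1 had 9.77 ± 0.71 CPM in wild type and 11.2 ± 0.92 in the knockout (SD, n = 3), and the groups overlapped. Its log2 fold change was 0.19 (95% interval -0.01 to 0.40, edgeR adjusted p = 0.213). TCF3, an E-box factor, stood at -0.01, and 10 of the 27 listed regulators, among them ZEB2 and TWIST1, were at 0 counts.

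Outside the members, the largest called change on any of these junction lists was in an actin regulator, ENAH, at -1.25 ± 0.10 on the log2 scale (SE, n = 3 in each group; edgeR, adjusted p = 3.74e-09). ENAH, an actin filament elongator at junctions and leading edges, had 23.5, 19.1 and 19.6 CPM in wild type and 9.47, 8.67 and 7.96 CPM in the knockout. Of the 21 tested genes on this list 4 fell and 2 rose, with a median of 0.0022. MYL9, a myosin light chain gene, fell from 78.8 ± 3.85 to 66.2 ± 2.53 CPM (SD, n = 3; edgeR, adjusted p = 0.00173). ROCK2 and ECT2 rose by 0.18 each but did not pass after the GC correction (edgeR, adjusted p = 0.0998 and 0.141), with scaling by library size alone (0.0611 and 0.0557) or without any 1 of wild-type replicates 2 and 3 and knockout replicates 1 to 3 (0.0604 to 0.212 for ROCK2 and 0.0544 to 0.160 for ECT2). Of 16 tested genes of cadherin turnover 2 rose and 1 fell: MMP14, a membrane protease gene, rose from 176.0 ± 6.89 to 216.5 ± 4.02 CPM (edgeR, adjusted p = 1.44e-05), ARF6 rose by 0.17 and the convertase gene PCSK5 changed by -0.28. The call of ARF6 was lost when wild-type replicate 2 or knockout replicate 2 was left out (0.0646 and 0.0505), and that of PCSK5 without wild-type replicate 1 or 2 or any 1 of the knockout replicates (0.0544 to 0.209) and in DESeq2 (0.0788), which called 3 genes of this list higher and 0 lower. After the GC correction 2 were higher and 3 lower.

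**Figure D4:**
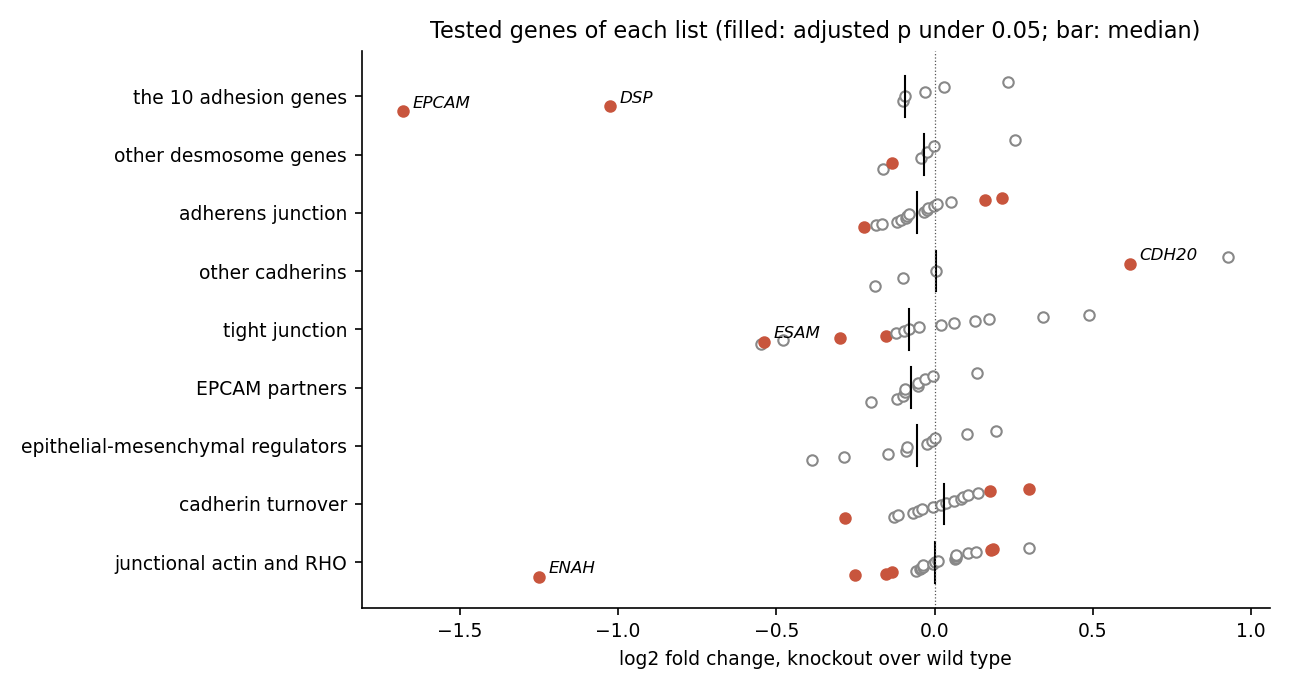
Log2 fold change, knockout over wild type (horizontal axis), of each tested gene in the 9 lists, with filled points for an adjusted p under 0.05 in edgeR and a bar at each list's median. EPCAM at -1.68, ENAH at -1.25 and DSP at -1.02 are the 3 lowest, and the medians lie between -0.09 and 0.03.

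None of the genes reported here beside DSP and EPCAM on the chromosome was called lower. Up to 2 tested protein-coding genes on each side were taken by position. Around DSP, SSR1 rose by 0.19 (edgeR, adjusted p = 0.0105), and RIOK1, SNRNP48 and BMP6 stood at 0.12, 0.0010 and 0.03 and did not pass. Around EPCAM, CALM2 stood at 0.03, TTC7A at -0.04 and KCNK12 at 0.22, and none of these 3 passed. The starts of DSG2 and DSC2 lie 439.2 kb apart in the desmosomal cadherin cluster. B4GALT6, the next tested protein-coding gene beyond DSG2, rose by 0.37 (edgeR, adjusted p = 3.66e-06).

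The genes most like DSP over the 6 libraries were KDM5C, NDRG1 and AIF1L, each with a Pearson correlation of log2 CPM of 0.998. These 6 points form 2 groups of 3, a difference all 4 genes share. KDM5C, a histone demethylase gene, changed by -0.22, NDRG1, a hypoxia-responsive gene, by -0.58 and AIF1L by -0.28, all smaller than the change of DSP.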

How the data were processed

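Per the file contents, the authors deposited raw counts, 1 whole number for each gene symbol and library, without normalization. The submitters' processing notes name hg38, TopHat, limma and edgeR. No source used here gives the counter, annotation or strand setting. Polyadenylated RNA was sequenced as 150 bp paired-end reads, per the labels' protocols. All 6 libraries entered 1 fit in R 4.3.3 with edgeR 4.0.16: filterByExpr (minimum count 10, minimum total 15), TMM scaling, robust quasi-likelihood testing of knockout against wild type without covariates, and Benjamini-Hochberg adjustment over all tested genes. CPM are TMM-scaled, and SEs derive from the F statistic. Coordinates and exon lengths are from GENCODE 29 (hg38). For the GC correction each library received a spline (5 degrees of freedom) on transcript GC content, centred on a median of 0, as an offset. Alternatives used DESeq2 1.42.0 and limma 3.58.1. Beyond the 10 genes and GSK3B, those named were up to 4 called genes of each list with the largest change at a mean of at least 1 CPM, or the 2 with the highest CPM where none was called, and the 3 most correlated with DSP at a mean of at least 5 CPM. Neighbours, ratios and all other named genes were added with their values seen; 1 neighbour and 1 list gene are not reported here. The members and lists were chosen with earlier results of these data known. The fit was tested on simulated data.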

Additional observations from a re-analysis of the deposited data

How the results depend on the processing

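The calls of EPCAM and DSP held in all 16 alternatives: RLE scaling, library size alone, both other filters, the replicate block, DESeq2, limma-voom, no robust estimation, the GC correction with and without the block, and leaving out each library. EPCAM ran from -1.88 to -1.49 and DSP from -1.08 to -0.96 on the log2 scale. The count of members lower was 2, or 3 where CTNNA1 passed, which it did in 7 alternatives (adjusted p 0.00664 to 0.237 over all 16). GSK3B stayed between -1.09 and -1.02. Of all genes 1951 were called, and 950 to 2531 without 1 library (1072 without wild-type replicate 2, and 1094, 950 and 1205 without knockout replicates 1, 2 and 3). With scaling by library size alone 34.6% of the called genes were higher in the knockout, against 47.0%. Members that were not called changed sign in 2 cases: DSC2 ran from -0.091 to 1.21 and PKP2 from -0.0083 to 0.11, the low ends without wild-type replicate 1 or 2 (DSC2) and 2 or 3 (PKP2). GSK3A ran from -0.0102 to 0.0727 without 1 library, against 0.03. List counts were less stable. Over the 16 alternatives 0 to 2 other desmosome genes, 0 to 4 adherens, 0 to 4 tight junction, 0 to 3 turnover and 2 to 5 actin genes were lower, and 0 to 2 adherens, 0 to 2 other cadherin, 0 to 2 tight junction, 1 to 4 turnover and 0 to 3 actin genes higher. Among EPCAM partners 0 to 2 were lower (2 after the GC correction and without wild-type replicate 3) and among the regulators 0 to 1 in each direction. Same-numbered libraries did not deviate together (r = 0.068, 0.002 and 0.032 across genes), so replicate numbers were not read as pairs; with the replicate block EPCAM was -1.65 and DSP -1.02, and 2 members were lower. Counts of EPCAM, DSC2 and JUP limit their precision.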
